A study of Mus musculus with 21 samples.

Results

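Chemokine ligands were followed across heart samples of wild-type and Gata4-reduced mice with and without pressure overload. The members were all genes whose array symbol is a ligand of the Ccl, Cxcl, Xcl or Cx3cl series. The rule works by name and uses no measured value, but it was set with earlier results of these data known. The rule gave 33 genes of the 18193 with a probe set of their own: 18 of the CC class, 13 of the CXC class, 1 of the XC class (Xcl1) and 1 of the CX3C class (Cx3cl1). Of these, 18 had a mean signal above the filter on low values and were tested among 13279 genes, and 15 lay below it. The tested genes were 9 CC and 7 CXC ligands with Xcl1 and Cx3cl1.

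The 21 arrays measured RNA of mouse heart, with cardiac myocytes named as the source, and the labels do not say if myocytes had been separated from the other cells of the heart. Wild-type mice had a sham operation (n = 4) or transverse aortic constriction (TAC), a ligature around the aorta that raises the pressure the left ventricle works against (n = 6). G4D mice, gene-targeted animals with reduced Gata4, the cardiac zinc-finger transcription factor, had the sham operation (n = 5) or TAC (n = 6). All 4 groups thus had surgery, and age, sex, strain and the time after the operation are not given in the sources used here. Nothing in the labels says that replicates are separate animals, so every p-value measures the spread between these arrays, which may be technical.

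Chemokines are small secreted proteins that guide leukocytes along gradients through G protein-coupled receptors. Inflammatory chemokines are induced in stressed tissue and bring in monocytes, neutrophils and T cells, while homeostatic ones such as Cxcl12 are made steadily and position cells at rest. In the pressure-overloaded heart, ligands of Ccr2, the main receptor for monocyte recruitment, have been studied as a route by which macrophages enter the muscle. Most ligands lie in gene clusters. In the RefSeq order of GRCm38.p6, Ccl2, Ccl7, Ccl11, Ccl12, Ccl8 and Ccl1 are neighbours on chromosome 11, and so are Ccl5, Ccl9, Ccl6, Ccl3 and Ccl4.

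Deposited array medians ran from 4.31 to 5.33 on the log2 scale, so arrays were quantile-normalized before any comparison. The lowest correlation of an array with the rest of its group was 0.912 and the highest between any 2 arrays was 0.949, and no array was a copy of another. The 8 cardiomyocyte markers averaged between 12.3 and 12.5 in every array. In G4D sham replicate 5 the atrial marker list averaged 12.58, against 5.94 to 6.53 in the other G4D sham arrays, and in G4D TAC replicate 6 it averaged 9.16, against 6.08 to 6.99 in the other G4D TAC arrays. The difference between the 3′ and 5′ actin control probe sets, a measure of RNA quality, averaged 0.52 ± 0.10 (SD, n = 4) for wild-type sham and 0.32 ± 0.11 (n = 6) for wild-type TAC arrays. It was 0.46 ± 0.10 (n = 5) in G4D sham and 0.25 ± 0.08 (n = 6) in G4D TAC, and sham and TAC arrays did not overlap in either genotype. Its part in any TAC result below was not tested. The targeted gene, Gata4, was at 8.11 ± 0.15 in wild-type sham and 7.85 ± 0.09 in G4D sham, a difference of -0.25 ± 0.12 (SE; limma adjusted p = 0.611). After TAC the sign was the other way, with 7.80 ± 0.23 in wild type and 7.97 ± 0.18 in G4D. That difference was 0.17 ± 0.10 (limma adjusted p = 0.556). The sources used here do not place the Gata4 probe set inside or outside the altered stretch of the gene, so these values do not check the labels.

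After TAC a minority of the chemokine ligands passed the test. In wild-type hearts 1 of the 18 tested ligands was called, Ccl8, which was higher. In G4D hearts 5 were called: Ccl8 and Ccl12 were higher, and Cxcl13, Cxcl14 and Cxcl17 were lower. A gene was called where its limma p, adjusted by Benjamini and Hochberg across the tested genes, was below 0.05. Among all tested genes 7.35% were called in wild type (5.19% higher and 2.16% lower) and 22.5% in G4D (13.2% higher and 9.32% lower). The counts of ligands are near those shares. More cells of a type and more RNA per cell cannot be told apart in these bulk samples, and of 10 tested macrophage markers 5 were higher after TAC in wild type and 6 in G4D on the same arrays. The median change of the 18 ligands was 0.11 in wild type and 0.05 in G4D on the log2 scale, beside -0.02 for all genes in each comparison. No ligand was called between genotypes in either surgery group or in the interaction, which subtracts the wild-type TAC effect from the one in G4D.

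**Figure D1:**
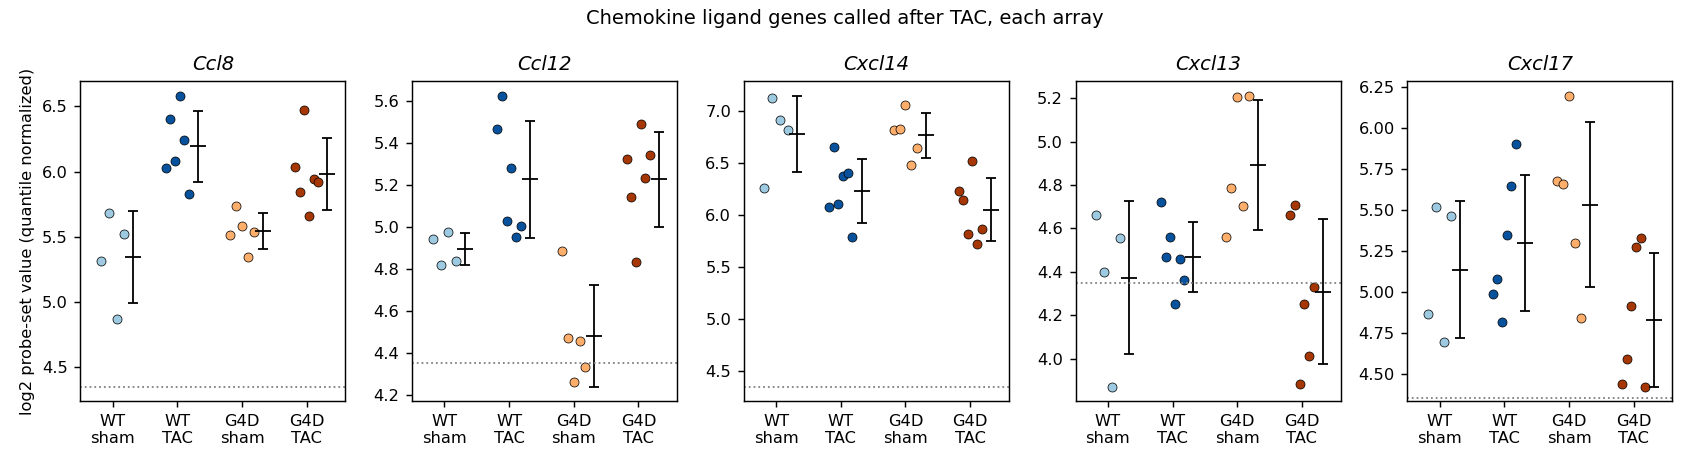
Quantile-normalized log2 signal of Ccl8, Ccl12, Cxcl14, Cxcl13 and Cxcl17 on each of the 21 arrays, by group; points are arrays, bars are the mean ± SD, and the dotted line is the filter level of 4.35. Ccl8 in wild type is the case where sham and TAC arrays do not overlap, with sham up to 5.68 and TAC from 5.83.

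Ccl8, also called MCP-2 after the monocyte chemoattractant proteins, is a CC ligand made by macrophages and stromal cells. Its signal was 5.32, 5.68, 4.87 and 5.52 in the 4 wild-type sham arrays, and ran from 5.83 through a median of 6.16 to 6.58 in the 6 wild-type TAC arrays. Every wild-type TAC array was therefore above every wild-type sham array. In G4D it was 5.51, 5.74, 5.58, 5.35 and 5.54 in sham and ran from 5.66 through 5.93 to 6.47 after TAC. Here the lowest of the TAC arrays lay within the sham range. The TAC difference was 0.85 ± 0.16 (SE; 95% interval 0.51 to 1.19; limma adjusted p = 0.0028) in wild type, a 1.80-fold rise. It was 0.44 ± 0.15 (0.12 to 0.76; limma adjusted p = 0.0448) in G4D, a 1.35-fold rise. The difference between these effects was -0.41 ± 0.22 (-0.88 to 0.06; limma adjusted p = 0.668), so a larger rise in wild type was not shown. Ccl8 was the only ligand of the 18 whose wild-type sham and TAC arrays did not overlap, and 10.5% of all tested genes had such groups. For TAC in G4D none of the 18 had groups apart (10.1% of all genes).

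The wild-type call of Ccl8 held without any single array, with estimates from 0.69 to 0.96. On the deposited values, where the median of all genes moved to -0.10, its difference was 0.79 (limma adjusted p = 0.182), or 0.89 above that median. The G4D call is close to the threshold. It was lost when wild-type sham 1, wild-type TAC 3 or 5, G4D sham 1, 3, 4 or 5, or G4D TAC 1, 3, 5 or 6 was left out, with estimates from 0.34 to 0.45 and limma adjusted p from 0.0510 to 0.106, and also without the filter on low values (0.0691).

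Ccl12, or MCP-5, is a mouse ligand of Ccr2 and attracts monocytes. Its signal was 4.94, 4.82, 4.97 and 4.84 in wild-type sham and ran from 4.95 through 5.15 to 5.63 after TAC. In G4D sham it was 4.89, 4.47, 4.26, 4.45 and 4.33, and after TAC it ran from 4.83 through 5.28 to 5.49. Apart from replicate 1, the G4D sham arrays were the lowest of the study for this gene, and the TAC arrays of both genotypes spanned similar levels. TAC raised Ccl12 by 0.75 ± 0.13 (SE; 95% interval 0.47 to 1.03; limma adjusted p = 0.000412) in G4D, a 1.68-fold rise. The wild-type difference was 0.33 ± 0.14 (0.03 to 0.63; limma adjusted p = 0.19). The effects differed by 0.41 ± 0.20 (limma adjusted p = 0.592), which does not pass. Before TAC, G4D was at -0.41 ± 0.15 (limma adjusted p = 0.439) relative to wild type, and after TAC at 0.00 ± 0.13 (limma adjusted p = 0.999). The G4D call held without any single array, with estimates from 0.69 to 0.86.

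Ccl8 and Ccl12, the ligands that were higher after TAC in G4D, are neighbours and are read from the same strand of chromosome 11. Their promoters, the 250 bases before the annotated start from RefSeq (GRCm38.p6), are shown to set these neighbours side by side. They lie at chr11:82114935-82115184 (Ccl8, plus strand) and chr11:82101595-82101844 (Ccl12, plus strand), written 5′ to 3′ with TATAAA, the core of a TATA box, in capitals.
Ccl8: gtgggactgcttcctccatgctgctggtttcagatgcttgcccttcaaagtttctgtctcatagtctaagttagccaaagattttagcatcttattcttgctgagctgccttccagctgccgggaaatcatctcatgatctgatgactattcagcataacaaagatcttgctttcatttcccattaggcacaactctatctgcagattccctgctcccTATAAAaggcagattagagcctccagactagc
Ccl12: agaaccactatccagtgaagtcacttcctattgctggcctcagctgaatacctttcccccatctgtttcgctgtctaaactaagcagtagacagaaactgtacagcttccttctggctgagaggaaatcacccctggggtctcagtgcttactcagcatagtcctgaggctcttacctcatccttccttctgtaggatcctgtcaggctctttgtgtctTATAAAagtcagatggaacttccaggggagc
The match begins 32 bases before the start in Ccl8 and 31 bases before it in Ccl12. TATAAA on the sense strand was found in 7.59% of 32851 promoter windows of this length, and in 9 of the 23 ligand genes for which a window was at hand. Cxcl13, which was lower after TAC in G4D, also has one, 46 bases before its start, so the match does not separate the directions.

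No other ligand of this chromosome 11 neighbourhood that was above the filter was called. Ccl2, or MCP-1, the best known Ccr2 ligand, averaged 5.37 ± 0.24 in wild-type sham and 5.66 ± 0.31 in wild-type TAC, and 5.32 ± 0.21 and 5.55 ± 0.17 in G4D sham and TAC. Its TAC difference was 0.30 ± 0.15 (95% interval -0.02 to 0.61; limma adjusted p = 0.281) in wild type and 0.22 ± 0.14 (-0.07 to 0.52; limma adjusted p = 0.274) in G4D. The intervals leave room for rises of the size seen for Ccl8 in G4D. Ccl7, or MCP-3, was below the filter with a mean of 4.20, and its differences were 0.29 ± 0.26 and 0.38 ± 0.24 in a fit without the filter.

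Ccl11, or eotaxin, which attracts eosinophils through Ccr3, lay just below the filter with a mean of 4.28. It averaged 4.15 ± 0.26 (n = 4) in wild-type sham and 3.57 ± 0.45 (n = 6) in wild-type TAC. In G4D sham its arrays were at 4.88, 4.49, 5.63, 5.12 and 5.93, all above the highest wild-type sham array at 4.42, and in G4D TAC it averaged 4.29 ± 0.73. In the fit without the filter the sham genotypes differed by 1.06 ± 0.35 (limma adjusted p = 0.5), and TAC in G4D by -0.93 ± 0.32 (limma adjusted p = 0.0575). Neither passed. Ccl1, the last gene of the neighbourhood and a Ccr8 ligand, was further below the filter, with a mean of 3.07. Its difference of -0.81 ± 0.26 in G4D had a limma adjusted p of 0.0395 in that fit, which passes there. Of the 18193 genes in that fit 2737 passed for TAC in G4D, and Ccl1 was the only one of the 15 dim ligands to do so. Its sham and TAC arrays overlapped.

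**Figure D2:**
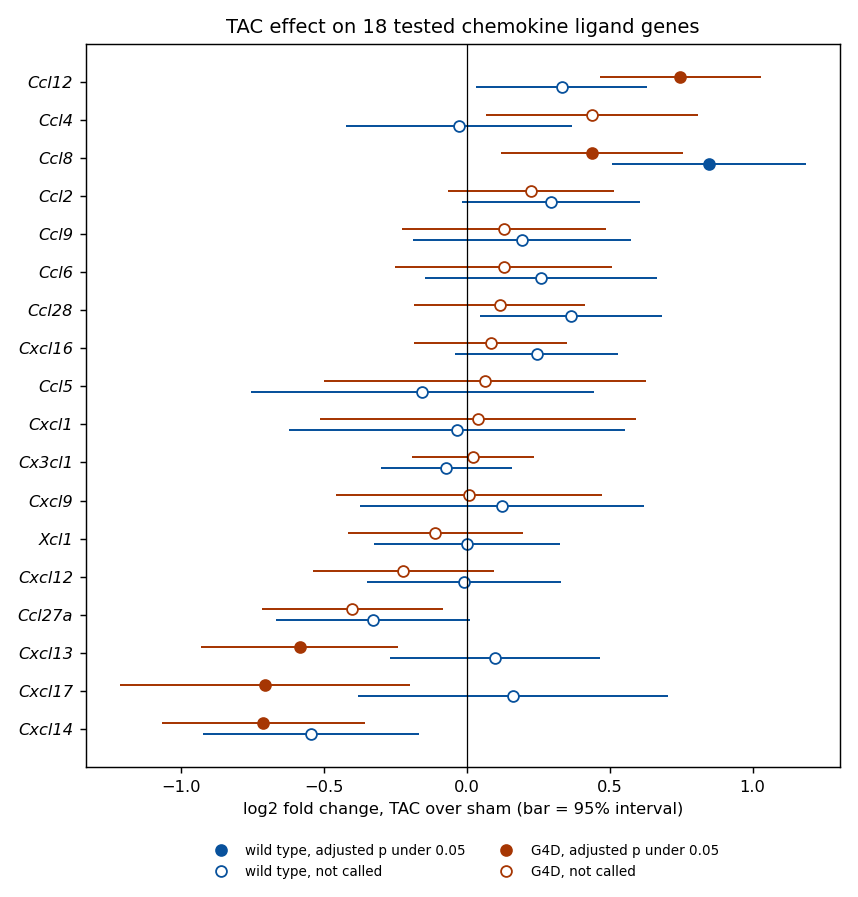
Log2 fold change of TAC over sham for the 18 tested ligands, wild type in blue and G4D in brown, with 95% intervals; filled points are called. Ccl8 is filled in both genotypes, and Ccl12 (0.75), Cxcl13 (-0.59), Cxcl14 (-0.71) and Cxcl17 (-0.71) in G4D.

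The second neighbourhood on chromosome 11 holds inflammatory CC ligands that attract myeloid cells and T cells. None of its 4 tested members was called. Ccl6 averaged between 6.08 and 6.59 over the 4 groups and its TAC differences were 0.26 ± 0.19 in wild type and 0.13 ± 0.18 in G4D. Ccl4, or MIP-1β, had a difference of -0.03 ± 0.19 in wild type and 0.44 ± 0.18 (limma adjusted p = 0.0836) in G4D. Ccl5, or RANTES, had -0.16 ± 0.29 and 0.06 ± 0.27, with the widest errors of the tested members of this cluster. Ccl3, or MIP-1α, was below the filter, at 0.54 ± 0.41 and 0.71 ± 0.38 without it.

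Ccl9, a Ccr1 ligand of mouse myeloid cells, had the highest signal of the CC ligands and was not called. Its brightest probe set averaged 6.83 ± 0.33 in wild-type sham, 7.02 ± 0.32 in wild-type TAC, 6.78 ± 0.30 in G4D sham and 6.91 ± 0.26 in G4D TAC. The TAC differences were 0.19 ± 0.18 and 0.13 ± 0.17. A dimmer probe set of the gene gave 4.85 ± 0.26, 5.38 ± 0.36, 4.48 ± 0.67 and 5.21 ± 0.43 in the same order, with TAC differences of 0.53 ± 0.28 and 0.72 ± 0.27. The 2 probe sets thus had the same sign and unlike sizes.

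Of the other CC ligands, Ccl27a and Ccl28, which act through Ccr10 and are known from epithelia, were above the filter. Ccl27a had a TAC difference of -0.33 ± 0.16 (limma adjusted p = 0.27) in wild type and -0.40 ± 0.15 (limma adjusted p = 0.0637) in G4D. For Ccl28 the values were 0.36 ± 0.15 (limma adjusted p = 0.175) and 0.11 ± 0.14. Ccl17, Ccl20, Ccl22, Ccl24 and Ccl25 were below the filter. Probe sets that the annotation gives to several genes of the Ccl19, Ccl21 and Ccl27 families were 4 in number and were not used.

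Cxcl14 was the clearest ligand to fall. It is a homeostatic chemokine known from epithelia and stroma. It read 6.26, 7.12, 6.91 and 6.81 in wild-type sham, and from 5.78 through 6.24 to 6.65 in wild-type TAC. In G4D it read 6.81, 6.82, 7.05, 6.48 and 6.65 in sham, and from 5.72 through 6.0 to 6.52 after TAC. Most TAC arrays of both genotypes were below the sham arrays, with wild-type sham replicate 1 and the highest G4D TAC array as the points that overlapped. The TAC difference in G4D was -0.71 ± 0.17 (SE; 95% interval -1.07 to -0.36; limma adjusted p = 0.00451), a fall to 0.61 of the sham level. The wild-type difference was -0.55 ± 0.18 (-0.92 to -0.17; limma adjusted p = 0.076) and did not pass. The effects differed by -0.17 ± 0.25 (-0.69 to 0.35; limma adjusted p = 0.925). A call in G4D alone is therefore no sign of a difference between genotypes.

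The G4D call of Cxcl14 held without any single array, from -0.80 to -0.65. In wild type it became a call without wild-type sham replicate 1 (-0.72, limma adjusted p = 0.0265) or wild-type TAC replicate 2 (-0.63, limma adjusted p = 0.0422). On the deposited values, where the median of all genes in the G4D comparison was 0.31, the G4D difference was -0.35 (limma adjusted p = 0.239), which is -0.65 relative to that median. A second, dimmer probe set gave -0.60 ± 0.29 in wild type and -0.39 ± 0.27 in G4D.

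The promoter of Cxcl14 is shown because it differs from those of Ccl8 and Ccl12 in the motifs it holds. It lies at chr13:56296552-56296801 on the minus strand (RefSeq, GRCm38.p6, 5′ to 3′). The capitals mark a STAT-type match to TTCNNNGAA and a match to the interferon-stimulated response element (ISRE), searched as GAAA, any 2 bases and GAAA.
Cxcl14: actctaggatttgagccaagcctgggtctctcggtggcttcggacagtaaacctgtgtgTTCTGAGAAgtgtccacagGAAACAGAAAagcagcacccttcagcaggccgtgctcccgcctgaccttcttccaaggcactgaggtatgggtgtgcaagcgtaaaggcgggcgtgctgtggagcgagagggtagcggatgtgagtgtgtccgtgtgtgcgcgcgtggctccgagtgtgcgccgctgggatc
The matches begin 191 and 172 bases before the start, and TATAAA does not occur in this window. Searched on both strands, TTCNNNGAA was found in 7.02% of all windows and in 2 of the 23 ligand genes, and the ISRE in 2.98% and also in 2. The NF-κB consensus was in 7.25% of all windows and in 7 of the 23 ligand genes, namely Ccl1, Ccl9, Ccl20, Cxcl1, Cxcl2, Cxcl3 and Cxcl10. GATAA, the letters GATA factors read, was in 22.6% and in 5. A match is a description of letters and not a bound site.

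Cxcl13, which guides B cells through Cxcr5, was called lower in G4D, on a probe set near the filter. Its arrays read 4.66, 4.40, 3.87 and 4.56 in wild-type sham and from 4.25 through 4.46 to 4.72 in wild-type TAC. In G4D sham they read 4.56, 4.79, 5.21, 4.70 and 5.21, and in G4D TAC from 3.88 through 4.29 to 4.71. The G4D sham arrays were the highest group. The TAC difference was 0.10 ± 0.18 (limma adjusted p = 0.822) in wild type and -0.59 ± 0.17 (95% interval -0.93 to -0.24; limma adjusted p = 0.014) in G4D, and the effects differed by -0.68 ± 0.24 (limma adjusted p = 0.392). A second probe set of nearly the same brightness, with a mean of 4.50 beside 4.51, showed no such fall. It averaged 4.51 ± 0.24, 4.41 ± 0.36, 4.56 ± 0.22 and 4.51 ± 0.18 in wild-type sham, wild-type TAC, G4D sham and G4D TAC, with differences of -0.11 ± 0.17 and -0.05 ± 0.16.

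Which of these probe sets stands for Cxcl13 decides its call. The mean of both gave -0.32 (limma adjusted p = 0.124). Leaving out wild-type sham 2, wild-type TAC 3 or 4, or G4D sham 1, 2, 3 or 5 made the other probe set the brighter, and the G4D value then ran from -0.12 to 0.04 without a call. The sign turned without G4D sham 5 (0.04). On the deposited values the difference was 0.13, which is -0.18 relative to the median of all genes, and with median centring it was -0.08, in each case without a call. G4D sham 5 is the array with the high atrial markers. Without it Ccl12, Cxcl14 and Cxcl17 were the ligands called in G4D, and without G4D TAC 6, the other array with high atrial markers, Ccl12, Cxcl13 and Cxcl14 were.

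**Figure D3:**
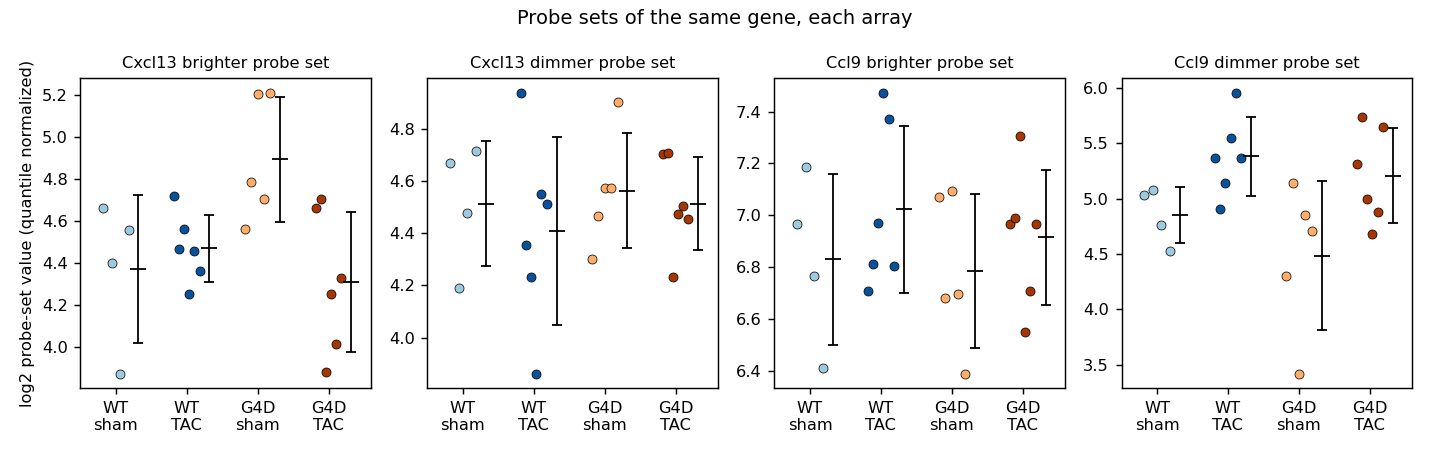
Log2 signal of the brighter and the dimmer probe set of Cxcl13 and of Ccl9 on each array, by group. For Cxcl13 the brighter probe set falls from 4.89 in G4D sham to 4.31 in G4D TAC, while the other stays at 4.56 and 4.51; for Ccl9 both are higher after TAC, by 0.13 and 0.72 in G4D.

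Cxcl17, a chemokine of mucosal surfaces, read 4.87, 5.52, 4.69 and 5.47 in wild-type sham and from 4.82 through 5.22 to 5.90 in wild-type TAC. In G4D it read 5.67, 5.66, 6.20, 5.30 and 4.84 in sham and from 4.42 through 4.75 to 5.33 after TAC. The groups overlapped in both genotypes. The TAC difference was 0.16 ± 0.26 (limma adjusted p = 0.795) in wild type and -0.71 ± 0.24 (95% interval -1.21 to -0.20; limma adjusted p = 0.0421) in G4D. The effects differed by -0.87 ± 0.36 (-1.61 to -0.12; limma adjusted p = 0.489), the widest gap between genotypes among the tested ligands, and it did not pass. The G4D call was lost without G4D sham 1, 2 or 3 or G4D TAC 1, 2, 3 or 6, with estimates from -0.73 to -0.55. It was also lost with no filter, with the compared groups alone in the fit, with median centring (-0.64) and on the deposited values (-0.43, or -0.74 relative to the median of all genes). After subtraction of group means, its signal had a correlation of -0.61 over the 21 arrays with the median of each deposited array. The same kind of correlation with the actin 3′ minus 5′ difference ran from -0.44 to 0.57 over the 18 ligands and was 0.57 for Ccl8, 0.52 for Ccl27a, 0.45 for Cxcl14 and 0.03 for Cxcl17, values given as a description. No promoter window was at hand for this gene.

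Cxcl12, the ligand of Cxcr4 and Ackr3 and a homeostatic chemokine of stroma and endothelium, had the highest signal of all ligands. It averaged 9.67 ± 0.23 in wild-type sham, 9.66 ± 0.28 in wild-type TAC, 9.65 ± 0.26 in G4D sham and 9.43 ± 0.27 in G4D TAC. The TAC difference was -0.01 ± 0.16 (95% interval -0.35 to 0.33) in wild type and -0.22 ± 0.15 (-0.54 to 0.10; limma adjusted p = 0.322) in G4D. For this probe set, the brightest of 3, a change beyond 0.54 in size is outside both intervals. With the probe sets averaged, the wild-type difference turned positive, so the bound does not cover the other probe sets. Cxcl16, a membrane-anchored ligand of Cxcr6, averaged between 6.21 and 6.45 over the groups, with TAC differences of 0.24 ± 0.14 (limma adjusted p = 0.348) and 0.08 ± 0.13.

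Cx3cl1, or fractalkine, is a membrane-bound ligand of endothelium and other cells that is shed by Adam10 and Adam17 and binds Cx3cr1. It had the narrowest interval of the bright ligands. Its group means ran from 6.86 to 6.96, and TAC differed from sham by -0.07 ± 0.11 (95% interval -0.30 to 0.16) in wild type and 0.02 ± 0.10 (-0.19 to 0.23) in G4D. Xcl1, the lymphotactin of T and NK cells, was at 7.71 ± 0.37, 7.71 ± 0.26, 7.64 ± 0.14 and 7.53 ± 0.23 in the order above. Its differences were 0.00 ± 0.16 (-0.33 to 0.33) and -0.11 ± 0.15 (-0.42 to 0.20). Of the 9 T and NK markers with a probe set, 7 were below the filter on the same arrays.

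Of the neutrophil-attracting CXC ligands, which act on Cxcr2, Cxcl2, Cxcl3, Cxcl5 and Cxcl15 were below the filter. Cxcl1, the tested member, averaged between 6.19 and 6.35 over the 4 groups, with SDs from 0.44 to 0.54, and its TAC differences were -0.03 ± 0.28 and 0.04 ± 0.27. Of the interferon-inducible ligands of Cxcr3, which attract activated T cells, Cxcl9 was tested and the others were below the filter. Cxcl9 had TAC differences of 0.12 ± 0.24 and 0.01 ± 0.22. Cxcl10, in the fit without the filter, was at 0.75 ± 0.44 (limma adjusted p = 0.462) in wild type and 0.19 ± 0.42 (limma adjusted p = 0.828) in G4D. Of 6 tested neutrophil markers none was higher after TAC in either genotype and 1, Ngp, was lower in G4D (-0.32).

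**Figure D4:**
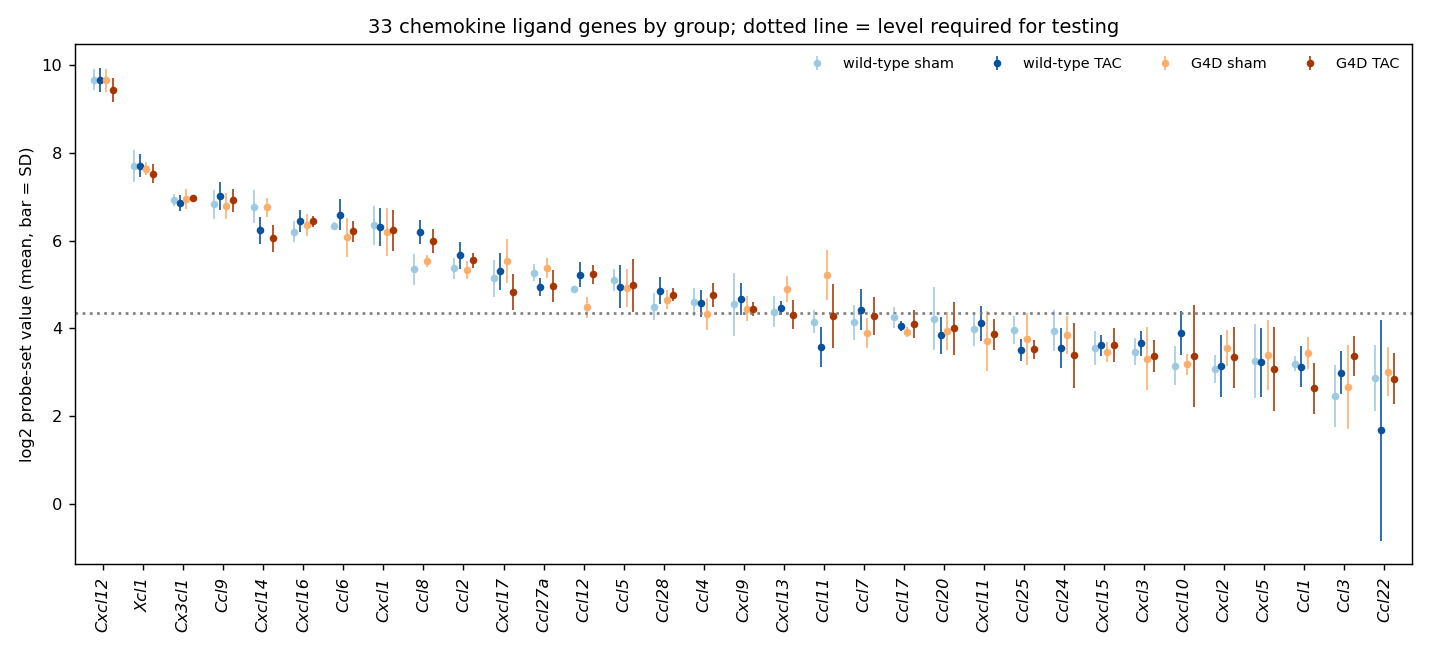
Mean ± SD of the quantile-normalized log2 signal of all 33 ligand genes in each of the 4 groups, ordered by mean signal, with the filter level of 4.35 as a dotted line. Cxcl12 stands highest at about the level of 9.67 in wild-type sham, and 15 genes lie below the line, down to Ccl22 with a mean of 2.56.

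A probe set's signal does not give a level comparable between genes, so the order of the ligands by signal describes the array. Cxcl13 (4.51) and Cxcl9 (4.53) were just above the filter, and Ccl11 (4.28) and Ccl7 (4.20) just below it. A signal below the filter does not show that a gene is silent. Of 10 tested ligands with several probe sets, 5 had the same sign in all of them in each TAC comparison. In none did a dimmer probe set point the other way with an unadjusted limma p under 0.05.

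The genotype comparisons gave no call among the ligands. In sham hearts 0.0527% of all genes, 7 in number, were called, and after TAC 3.36%. At an unadjusted p under 0.05 in limma, 2 of the 18 ligands passed in sham (8.09% of all genes) and 1 after TAC (13.4% of all genes). By the same unadjusted threshold TAC gave 4 in wild type (19.9%) and 7 in G4D (34.3%). None of the 18 tested ligands had genotype groups that did not overlap, in sham (2.9% of all tested genes) or after TAC (2.59%). Ccl11, below the filter and so outside these shares, had such groups in sham. The share among genes below the filter was not counted. Of all tested genes 0.0151% passed the interaction after adjustment, and 3 ligands (8.36% of all genes) had an unadjusted p under 0.05 in it. After TAC the G4D values were lower than wild type in 13 of the 18 ligands, with a median of -0.11 beside -0.01 for all genes, and ran from -0.47 to 0.19. Cxcl17 was at -0.47 ± 0.23 (limma adjusted p = 0.402) and Ccl6 at -0.39 ± 0.17 (limma adjusted p = 0.326). In sham the ligands ran from -0.41 for Ccl12 to 0.52 for Cxcl13, with limma adjusted p of 0.439 and 0.433. These comparisons share groups: the sham groups enter the genotype, TAC and interaction values alike, so their values are not independent.

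**Figure D5:**
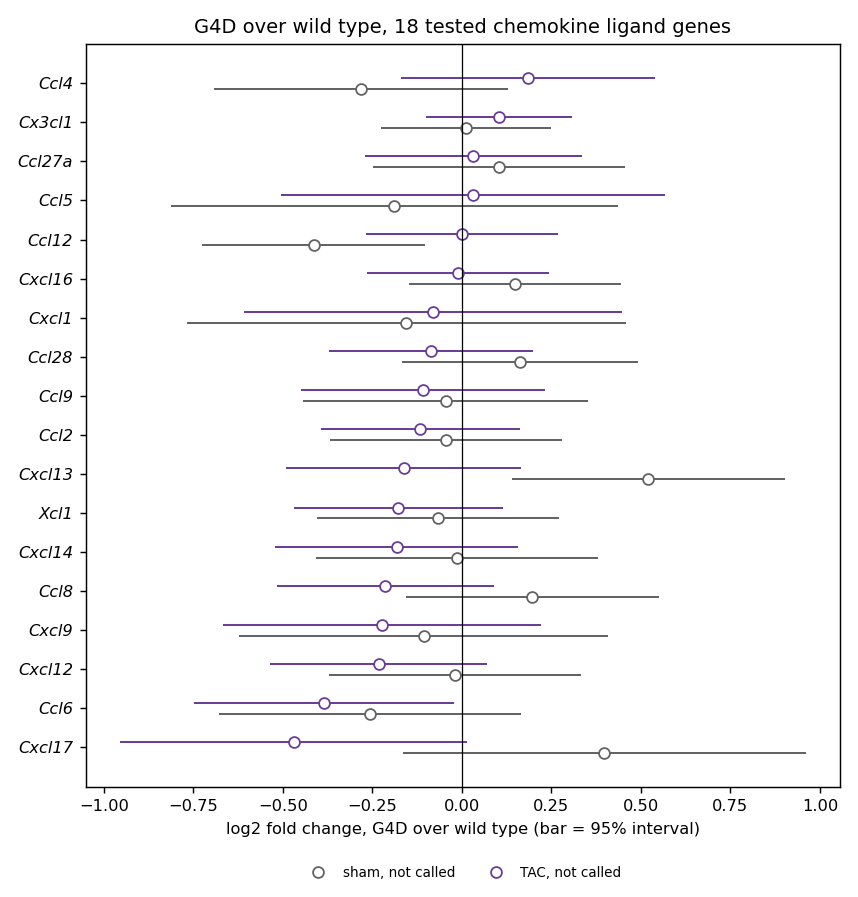
Difference between G4D and wild type (log2 fold change, G4D over wild type) for the 18 tested ligands in sham (grey) and after TAC (purple), with 95% intervals; no point is called. In sham Ccl12 (-0.41) and Cxcl13 (0.52) are the ends of the range, and after TAC Cxcl17 (-0.47) is the lowest.

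Of 20 chemokine receptor genes, 9 were tested. None was called in wild type after TAC, and 3 were higher and 2 lower in G4D, with a median of -0.25. Over all tested genes 7.35% were called in wild type (5.19% higher and 2.16% lower) and 22.5% in G4D (13.2% higher and 9.32% lower). Those shares belong beside the counts of this and the following lists, and calls in G4D alone are no sign of a difference between genotypes. Cx3cr1, the fractalkine receptor of macrophages and monocytes, differed by 2.01 ± 0.35 (limma adjusted p = 0.000287) in G4D and by 0.63 ± 0.37 (limma adjusted p = 0.377) in wild type, with a G4D sham mean of 3.62, under the filter level. Ccr2 differed by 0.59 ± 0.20 (limma adjusted p = 0.0383) and 0.63 ± 0.21 (limma adjusted p = 0.0785), close values with a call in G4D alone. Cxcr4, the Cxcl12 receptor, differed by 0.59 ± 0.17 (limma adjusted p = 0.018) and 0.45 ± 0.19 (limma adjusted p = 0.173). Ccrl2, which binds chemerin, and Ccr6, the Ccl20 receptor, fell in G4D, with differences of -0.85 ± 0.14 (limma adjusted p = 0.00017) and -0.40 ± 0.13 (limma adjusted p = 0.0269). No receptor passed the interaction.

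Genes that capture or cut chemokines rose in part. Of 14 atypical receptors and processing enzymes, 12 were tested, and 3 were higher in wild type after TAC and 5 in G4D, none lower, with a median of 0.14 in each. The macrophage protease Ctss rose by 1.02 in wild type and 0.91 in G4D. Mmp14, which cleaves matrix and Cxcl12, rose by 0.84 and 1.75. Ackr3, the Cxcl12 scavenger, rose in wild type by 0.41 ± 0.10 (limma adjusted p = 0.012) and was at 0.10 ± 0.09 (limma adjusted p = 0.49) in G4D. In G4D the sheddases Adam10 and Adam17 rose by 0.47 and 0.27, and Mmp2 by 0.65. In wild type these were at 0.42 ± 0.16, 0.05 ± 0.10 and 0.38 ± 0.17, with limma adjusted p of 0.118, 0.818 and 0.199.

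Chemokines under other names and chemokine-like factors, all 8 of them tested, included 2 higher and 1 lower in wild type and 3 higher and 1 lower in G4D. Pf4, which is Cxcl4, a platelet and macrophage chemokine, rose by 0.51 ± 0.12 (limma adjusted p = 0.00906) and 0.52 ± 0.11 (limma adjusted p = 0.00141). Mif, a cytokine that also binds Cxcr4, was at 0.13 ± 0.10 (limma adjusted p = 0.531) in wild type, rose by 0.66 in G4D and was 0.44 ± 0.09 (limma adjusted p = 0.00799) higher in G4D than in wild type after TAC. Cmtm3 rose in both genotypes and Cmtm8 fell in both.

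Of the cytokines and receptors upstream of chemokine genes, 18 of 24 were tested, with 3 higher in wild type after TAC, 7 in G4D and none lower. The alarmin Il33 rose by 0.90 in wild type, from a sham mean of 3.82, under the filter level. In G4D it was at 0.38 ± 0.23 (limma adjusted p = 0.26). Osmr, the oncostatin M receptor, rose by 0.49 in wild type and 0.77 in G4D. Tlr4 and Tlr2 rose by 0.65 and 0.61 in G4D, and were at 0.32 ± 0.20 (limma adjusted p = 0.419) and 0.55 ± 0.17 (limma adjusted p = 0.0596) in wild type. The NF-κB list held factors, their feedback inhibitors and the adhesion genes Icam1 and Vcam1. Of its 13 tested genes, 2 were higher in wild type and 3 in G4D, among them Nfkbiz by 0.93 and 0.95. Of 14 tested interferon-response genes 1 was higher in wild type, Ifit2 by 1.20, and 2 in G4D, Irf8 by 0.95 and Ifit2 by 0.75, with list medians of 0.43 and -0.06. Irf8 was at 0.76 ± 0.28 (limma adjusted p = 0.109) in wild type. Among all tested genes 5.19% were called higher in wild type and 13.2% in G4D, to be read beside these counts.

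Part of the markers of macrophages and fibroblasts moved with TAC as well. Of 12 macrophage and monocyte markers, 11 had a probe set, 10 were tested, and 5 were higher in wild type and 6 in G4D, none lower, with medians of 0.57 and 0.49. Their mean signal ran from 6.26 to 6.65 in wild-type sham, 6.51 to 7.29 in wild-type TAC, 6.30 to 6.69 in G4D sham and 6.78 to 7.12 in G4D TAC. Of 8 fibroblast markers 4 were higher in each genotype. The shares of all tested genes called higher, to be read beside these marker counts, were 5.19% in wild type and 13.2% in G4D. The mean signals of the list were 9.18 to 9.23 and 9.48 to 10.29 in wild-type sham and TAC. They were 9.07 to 9.72 and 9.75 to 10.45 in G4D sham and TAC. Col1a1, Col1a2, Col3a1 and Lum had the large changes, with Col1a1 at 8.50 and 10.08 in wild type and 8.54 and 10.61 in G4D. Dcn, Pdgfra, Tcf21 and Dpt moved less. Pdgfra was at 7.96 and 8.03 in wild type and 7.99 and 8.29 in G4D, and Dpt at 9.57, 9.65, 9.68 and 9.65. The part of these markers in the rise of Ccl8 and Ccl12 was not tested. Markers of B cells, of which 2 of 5 were tested, gave no call in either genotype. The call of Cxcl13, the ligand that guides B cells, depended on the choice of probe set. Of 4 epicardial and mesothelial markers 2 were tested. Upk3b fell in G4D after TAC, where Cxcl13, Cxcl14 and Cxcl17 were lower, with a difference of -1.29 ± 0.31 (limma adjusted p = 0.00474). Its mean over all arrays, 4.37, was just above the filter level of 4.35. It averaged 5.12 in G4D sham, the highest group, and 3.84 in G4D TAC, under that level. In wild type it averaged 4.35 in sham and 4.30 after TAC. Upk3b thus passed the filter through G4D sham, and the p-value for its fall from that group is not independent of the filter. Upk1b was at -0.05 ± 0.18 (limma adjusted p = 0.884), and Wt1 and Msln were below the filter. The part of these markers in the lower ligands was not tested either.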

How the data were processed

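Each array came with deposited log2 signals, 1 for each probe set, summarised by the authors with PLIER per the submitters' processing notes; its version, background correction and normalization are not given in the sources used here. Symbols came from the platform annotation. The array holds 45101 probe sets. After removal of 64 controls, 34945 of the rest carried 1 symbol, 932 several and 9160 none. Arrays were quantile-normalized, probe sets whose mean was under the 40th percentile (4.35) were dropped, and the brightest probe set stood for a gene. The 4 group means of the 21 arrays were fitted in limma 3.58.1 (R 4.3.3; lmFit, eBayes, 17 residual degrees of freedom), with no covariate. Tests were two-sided, with Benjamini-Hochberg adjustment over all 13279 tested genes and a threshold of 0.05. The scripts were tested on simulated data. Genes given per array were the called ligands, and the 6 brightest tested ligands were named beside them; the remaining ligands are given by values or counts. The members and the gene lists were chosen with earlier results of these data known. The 15 dim ligands were read in the fit without the filter. The number of arrays limits the precision. Promoter windows were matched by symbol to RefSeq, which gave 23 of the 33 genes. Alternatives were the filter, the scaling, the choice of probe set, the groups in the fit, limma-trend, a replicate block and leaving out each array.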

Additional observations from a re-analysis of the deposited data

How the results depend on the processing

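No ligand was called between genotypes or in the interaction under any alternative run. For TAC in wild type the count of called ligands, 1, became 0 on the deposited values and ran from 1 to 2 with 1 array left out. For TAC in G4D the count, 5, became 2 with the filter at the 60th percentile, 2 on the deposited values, 3 with median centring and 3 with the replicate block, and ran from 2 to 6 with 1 array left out. Cxcl13 in G4D, at -0.59, reversed on the deposited values (0.13, or -0.18 relative to the median of all genes), and ran from -0.67 to 0.035 with 1 array left out, where the sign turned without G4D sham replicate 5. Over all tested genes the sham genotype count, 7, became 15 with the 60th percentile, 3 as deposited, 4 with median centring, 14 with limma-trend and 3 with the block (1 to 27 with 1 array left out). The wild-type TAC count, 976, became 95 as deposited, 388 with median centring and 488 with the block (564 to 1145). The count after TAC, 446, became 64, 185 and 274 in that order (247 to 644). The interaction count, 2, became 1 without the filter, 20, 6 and 10 with the 60th percentile, the deposited values and median centring, 0 with probe sets averaged, 16 with limma-trend and 1 with the block (1 to 29). On the deposited values the median of all genes moved to -0.28 in sham, -0.10 and 0.31 for TAC in wild type and G4D, 0.14 after TAC and 0.42 in the interaction, and the cause of each change was not tested. The share of calls that were higher then rose from 70.6% to 94.7% in wild type, from 58.6% to 97.8% in G4D and from 62.6% to 87.5% after TAC, and with median centring to 93.8%, 88.8% and 82.7%. In sham it fell from 57.1% to 0 as deposited and 25% with centring. For single named ligands 1278 alternatives kept sign and call, 35 lost a call, 2 gained one and 110 reversed, most of them near 0: of the reversals 72 came with 1 array left out, and 2 (Cxcl13 above) were of a called value. The uncalled values that turned on the deposited values were, in sham, Cx3cl1 -0.29, Cxcl13 -0.091 and Cxcl16 -0.12; for TAC in wild type, Cxcl13 -0.17 and Xcl1 -0.086; for TAC in G4D, Cxcl12 0.21 and Xcl1 0.31. After TAC they were Ccl9 0.037, Cxcl13 0.21, Cxcl16 0.15 and Xcl1 0.0022, and in the interaction Ccl9 0.37, Cxcl12 0.33, Cxcl13 0.30, Cxcl14 0.27, Cxcl16 0.26 and Xcl1 0.39. With median centring these were Cx3cl1 -0.14 in sham, Cxcl13 -0.11 and Xcl1 -0.019 for TAC in wild type, Xcl1 0.10 for TAC in G4D, Cxcl13 0.088 and Cxcl16 0.026 after TAC, and Ccl9 0.097, Cxcl12 0.054, Cxcl13 0.027, Cxcl14 0.0011 and Xcl1 0.12 in the interaction. With probe sets averaged they were Cx3cl1 -0.098 and Cxcl12 0.12 in sham, Cxcl12 0.18 and Cxcl13 -0.0042 for TAC in wild type, Cx3cl1 -0.060 for TAC in G4D, and Ccl9 0.066 and Cxcl14 0.019 in the interaction. With the block they were Cxcl14 0.019 in sham and Cx3cl1 -0.0036 for TAC in G4D. With 1 array left out, the sham values that crossed 0 ran from -0.059 to 0.62 (Cxcl13), -0.19 to 0.10 (Cxcl14), -0.11 to 0.082 (Cxcl12), -0.19 to 0.050 (Xcl1), -0.058 to 0.078 (Cx3cl1) and -0.19 to 0.073 (Ccl9). For TAC in wild type they ran from -0.22 to 0.19 (Cxcl13), -0.097 to 0.093 (Cxcl12) and -0.12 to 0.12 (Xcl1), and for TAC in G4D from -0.045 to 0.092 (Cx3cl1). After TAC they ran from -0.054 to 0.081 (Ccl12), -0.24 to 0.11 (Cxcl13) and -0.075 to 0.055 (Cxcl16). In the interaction they ran from -0.78 to 0.16 (Cxcl13), -0.28 to 0.0045 (Cxcl14), -0.23 to 0.0099 (Xcl1) and -0.18 to 0.077 (Ccl9). Same-numbered arrays of different groups did not deviate together as a rule. Of 28 pairs 9 had a correlation over 0.1 (median -0.07, range -0.36 to 0.42). In 9 of 56 comparisons of an array with another group its own number was the best match. The labels do not say what a number stands for, and these correlations cannot exclude a shared batch. In the block, Ccl8 was called in wild type, and Ccl12, Cxcl13 and Cxcl14 in G4D, where Ccl8 (0.48, limma adjusted p = 0.0569) and Cxcl17 (-0.73, limma adjusted p = 0.0781) lost their calls.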

Other observations

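Ccl5 and Cxcl1 varied together within groups. After subtraction of group means, their signals had a correlation of 0.91 over the 21 arrays, the highest of the 153 pairs of tested ligands, whose median was 0.07 and whose lowest was -0.67. In all, 12 pairs were above 0.5. The arrays share their normalization, and the value is a description. It depended on the Cxcl1 probe set: the brightest (mean 6.27) gave 0.91, the next (6.04) gave 0.57, and the dimmest (4.30) gave -0.31.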
